A study of Macaca mulatta with 30 samples.

Results

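The submandibular gland was compared with the sublingual gland of the same rhesus macaques (Macaca mulatta), using 12 of the 30 RNA-sequencing libraries of the study. The members were all libraries labelled submandibular (6) and all labelled sublingual (6), and they were paired by the animal number. Both glands came from the left side and were flash frozen, with RNA taken from thin tissue sections. Animals 1 to 4 were female and animals 5 and 6 male. The labels used here name no treatment, genotype or age, and all animals carried the same description apart from sex. The other 18 libraries, from parotid, pancreas and liver, entered the gene filter, the scaling and the fit, where they helped to estimate the spread of each gene. They also served to show the level of salivary genes in a tissue that does not make saliva.

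Both glands empty beneath the tongue, and they differ in the cells that make the fluid. In primates the submandibular gland is a mixed gland in which serous acini, which release enzymes and small proteins in a watery fluid on demand, predominate. The sublingual gland consists largely of mucous acini, which package heavily glycosylated mucins in large pale granules, capped by serous cells, and it secretes a viscous fluid. In both, striated and other ducts modify the fluid, myoepithelial cells squeeze the acini, and plasma cells between them supply immunoglobulin A.

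Expression is given in TPM, a length-corrected share of a total that is the same in every library. A difference is the mean of log2(TPM + 1) in submandibular minus that in sublingual gland, so positive values mean a higher level in submandibular gland. Each library was first scaled by a trimmed-mean factor, because a few secreted genes took most of the total in one gland. The 10 most abundant genes took 73.5 to 78.9% of all TPM in 5 submandibular libraries and 11.1% in that of animal 4, against 18.7 to 52.5% in the sublingual libraries. The share was 65.3% ± 26.6 in submandibular and 37% ± 13.8 in sublingual gland (mean ± SD, n = 6). The difference was 28.3 ± 24.4 percentage points, positive for 5 animals of 6. A two-sided exact sign-flip permutation test gave p = 0.0625, where 6 pairs allow no p below 0.0312. Without animal 4 it was 36.8 ± 14.2 points and positive in each of the other 5, and the exact sign-flip p of 0.0625 is the smallest that 5 pairs allow.

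Several pieces held other tissue, and the libraries concerned are named before the results that rest on them. The submandibular library of animal 4 was rich in fat and held little secretory tissue. The summed level of 14 fat cell markers was 14524 TPM there and 84.9 to 289 TPM in the other 5 submandibular libraries. FABP4, a fatty acid carrier of fat cells, stood at 4649 TPM in it, and HBB, the beta chain of haemoglobin, at 5306 TPM. Markers of fibroblasts summed to 9455 TPM in it (62.1 to 136 in the other 5), of macrophages to 1460 TPM (13.4 to 28.8) and of endothelium to 574 TPM (15.7 to 27.6). The sublingual libraries of animals 1 and 4 held genes of stratified squamous epithelium, the lining of the mouth. Their 15 squamous markers summed to 42828 and 124832 TPM, against 45.2 to 467 TPM in the other 4 sublingual libraries and 19.5 to 663 TPM in submandibular gland. These libraries were also low in secretory genes. A list of mucous secretion genes summed to 35750 and 5773 TPM in animals 1 and 4, against 188716 to 358639 TPM in the other 4. A list of serous secreted genes summed to 18743 and 6769 TPM, against 67990 to 130667 TPM. SPRR3, a precursor of the cornified envelope, was the most abundant gene of the sublingual library of animal 4. The sublingual libraries of animals 1 and 5 held striated muscle, with 21 markers summing to 13460 and 33951 TPM, against 60.3 to 532 TPM in the other 4. None of these markers was listed at 0 in all libraries of a gland. In pieces of tissue, fewer cells of a type and less RNA per cell cannot be told apart.

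**Figure D1:**
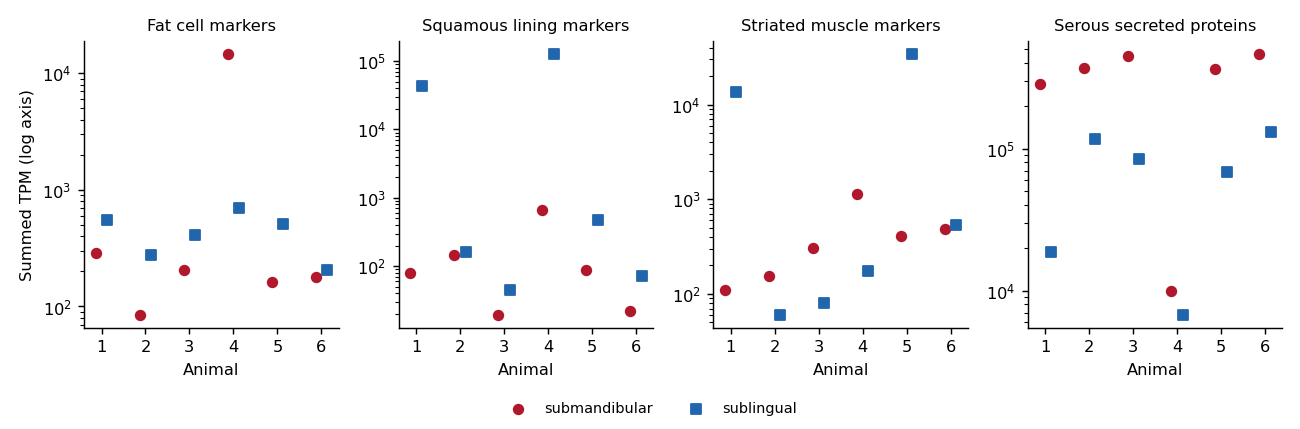
Summed TPM (log axis) of fat cell, squamous lining and striated muscle markers and of serous secreted proteins, for each animal (x axis), with circles for submandibular and squares for sublingual gland. The fat markers reach 14524 TPM in the submandibular library of animal 4, the squamous markers 42828 and 124832 TPM in the sublingual libraries of animals 1 and 4, and the muscle markers 13460 and 33951 TPM in those of animals 1 and 5.

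Genes of one tissue were found at low level in every other tissue. The 14 hepatocyte markers summed in the glands to 0.366 to 0.876% of the liver median, and the 12 pancreatic acinar markers to 0.135 to 1.26% of the pancreas median. Levels in liver are therefore given beside those of the lower gland, in TPM as deposited. The scaling factors, by which TPM is divided, were 1.37 to 1.61 in liver. They were 0.659 to 1.80 in sublingual gland and 0.468 to 0.681 in submandibular gland, apart from animal 4 at 2.67. Unscaled, most submandibular levels therefore look lower beside liver than they would after scaling. The origin of this common low level was not tested.

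Of 13550 genes tested, 2012 (14.8%) differed between the glands at a Benjamini-Hochberg adjusted p below 0.05 in limma. 870 genes (6.42%) were higher and 1142 (8.43%) lower in submandibular gland, and the median difference of all genes was -0.00. Unscaled, the median over the 13550 genes was -0.56 and the calls split into 102 higher (0.753%) and 3685 lower (27.2%), so that direction is reported here relative to the bulk of genes. Quantile normalisation gave 1199 higher and 1031 lower. Of the 2012 genes, 162 had the opposite sign in TPM as deposited. Without the pair of animal 4 the number was 1966 (14.5%), with 858 higher (6.33%) and 1108 lower (8.18%), and 1518 genes were called both with and without it. Leaving out animal 1 gave 798 calls and leaving out animal 2 gave 1084. Without the pairs of animals 1 and 4, the animals with squamous lining in the sublingual piece, 835 genes were called (6.16%), with 376 higher (2.77%) and 459 lower (3.39%), and 671 of the 835 were among the 2012. Without the pairs of animals 1, 4 and 5 the calls were 1156 (8.53%), with 504 higher (3.72%) and 652 lower (4.81%). A fit to the 12 gland libraries alone called 579.

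**Figure D2:**
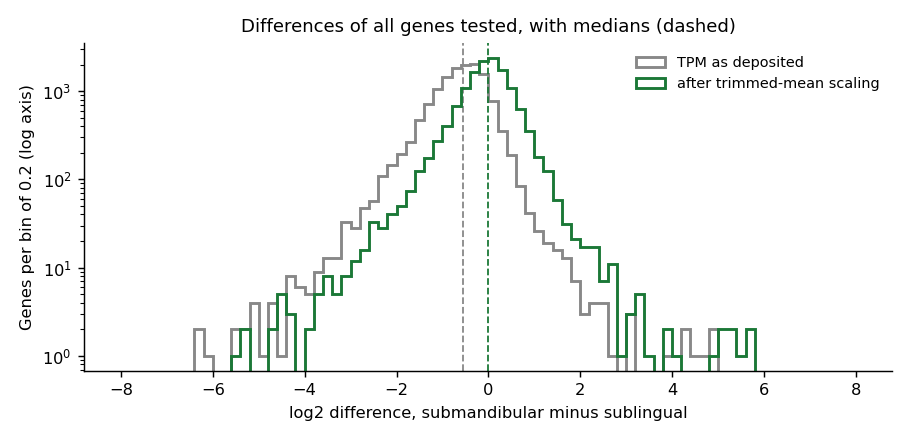
Number of genes (log axis) in each bin of 0.2 of the log2 difference, submandibular minus sublingual, for all 13550 genes tested, in TPM as deposited (grey) and after trimmed-mean scaling (green). Dashed lines mark the medians, -0.56 as deposited and -0.00 after scaling.

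The secreted proteins that dominated the submandibular gland were cystatins, a short palate, lung and nasal epithelium clone (PLUNC) family member, a proline-rich protein and a carbonic anhydrase. Of 18 tested genes in a list of serous secreted proteins, 8 were higher in submandibular gland and 0 lower (all genes: 6.42% and 8.43%). The list's median difference was 1.83. CST5, CST2, BPIFA2, SMR3B, PRR27 and CA6 were each lower in the submandibular than in the sublingual library of animal 4. In the other 5 animals every submandibular value of these genes lay above every sublingual value. Without the pair of animal 4, 9 members were higher and 1 lower (all genes: 6.33% and 8.18%), with a median of 2.44. In TPM as deposited 7 were higher and 5 lower (all genes: 0.753% and 27.2%). LCN1, a lipocalin of the same list, reached 1 TPM in 5 libraries and missed the filter. It stood at 0 to 0.073 TPM in submandibular and at 0.358 to 4.66 TPM in sublingual gland, and in the fit with no filter it was lower by -1.65 (limma adjusted p = 0.000185).

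CST5 encodes cystatin D, a salivary inhibitor of cysteine proteases. It stood at 68.7, 10009 and 13563 TPM (lowest, median, highest) in submandibular and at 97.1, 163 and 239 TPM in sublingual gland, with 175 to 237 TPM in liver. The difference was 5.73 (SE 0.90, limma adjusted p = 0.000325), and 7.19 without the pair of animal 4. CST2, which encodes cystatin SA, stood at 27453 to 112245 TPM in 5 submandibular libraries, at 70.8 TPM in that of animal 4 and at 183 to 1800 TPM in sublingual gland. Its difference was 5.70, and liver held 133 to 1634 TPM. CST3, which encodes the cystatin C found in most body fluids, was less gland-specific. It stood at 4075, 6212 and 7803 TPM in submandibular and at 726, 1533 and 3694 TPM in sublingual gland, and the groups did not overlap, animal 4 included. Its difference was 2.70 (SE 0.45, limma adjusted p = 0.000554), higher in 6 of 6 animals.

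BPIFA2 encodes a salivary protein of the PLUNC family that binds bacterial lipopolysaccharide. In submandibular gland it stood at 406 TPM in animal 4, with 83114 to 138344 TPM in the others, and in sublingual gland at 644, 1754 and 6174 TPM. The difference was 5.47 (SE 1.00, limma adjusted p = 0.00125), and liver held 1306 to 2758 TPM. Its close relative BPIFA4 followed at 1042 to 2362 TPM in the same 5 libraries, with a difference of 4.90. In sublingual gland BPIFA4 stood at 725 TPM in animal 5, with 9.97 to 29.4 TPM in the other 5.

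SMR3B encodes a small proline-rich secreted protein. It stood at 103269 to 152354 TPM in 5 submandibular libraries and at 1287, 3256 and 7819 TPM in sublingual gland, where liver held 2670 to 4269 TPM. Its difference was 5.01 (limma adjusted p = 0.0018). CA6, the secreted carbonic anhydrase that buffers saliva, stood at 9370 to 15661 TPM in 5 submandibular libraries. In sublingual gland it ran from 157 and 243 TPM in animals 4 and 1 to 1055, 3365, 3861 and 4295 TPM in animals 2, 3, 5 and 6. The latter 4 lay above the highest liver value of 494 TPM, and the difference was 3.21. PRR27 (3.52) and PRR4 (2.59), both proline-rich proteins, were also higher. CA6 lost its limma call without animal 1, 2 or 3 (adjusted p = 0.128, 0.0783 and 0.0564) and that of PRR27 without animal 1 (0.0725). That of PRR4 was lost without animal 1, 2, 3 or 6 (0.0554 to 0.167) and without the animal block (0.0607).

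The most abundant submandibular feature had no gene name. LOC114670789 stood at 124029 to 265700 TPM in 5 submandibular libraries and at 2720 TPM in animal 4. In sublingual gland it stood at 2749 to 4976 TPM, against 3854 to 6359 TPM in liver. LOC722360 had the same pattern, at 68425 to 173096 TPM in 5 submandibular libraries, 1665 TPM in animal 4 and 2042 to 3217 TPM in sublingual gland. The differences were 5.34 and 5.13. These unnamed identifiers, the cystatins and the BPIF genes have near relatives. The sources used here do not say how reads matching several relatives were assigned, which leaves each single value uncertain.

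In 9 of the 12 named genes with the largest rises, the median of the sublingual libraries was at or below the highest liver value in TPM as deposited. The exceptions were PRR27, CA6 and TESC, a calcium-binding protein, which stood at 189 to 349 TPM in 5 submandibular libraries, 55.2 TPM in animal 4 and 10.4 to 118 TPM in sublingual gland. The 9 included CST3, whose product is found in most body fluids, and RCN1, RGCC and TCIM. Whether liver itself makes these was not tested, so their liver level need not be background. The remaining named rises were in RCN1, RGCC and TCIM. RCN1, a calcium-binding protein of the endoplasmic reticulum, stood at 66.3 to 119 TPM in all 6 submandibular libraries and at 19.3 to 56.6 TPM in sublingual gland, with no overlap. RGCC and TCIM, with differences of 2.63 and 2.27, overlapped between the glands in TPM. TCIM lost its limma call without animal 1, 2 or 5 (adjusted p = 0.0542 to 0.111).

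**Figure D3:**
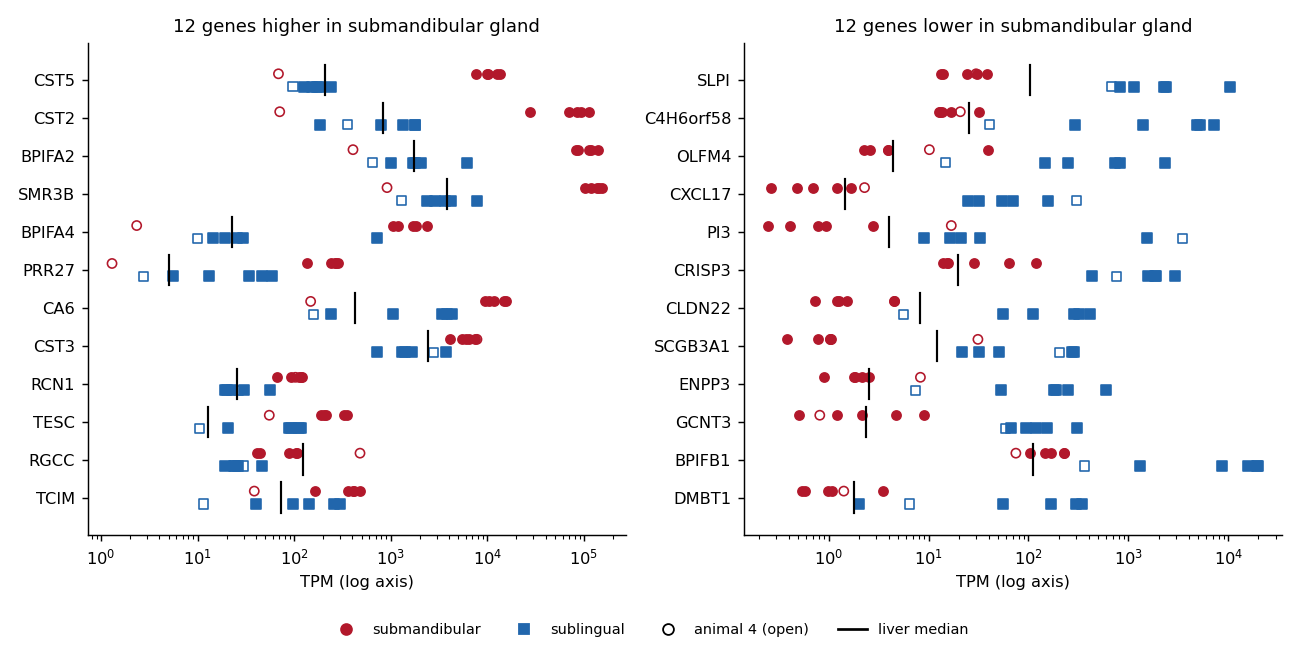
TPM (log axis) of the 12 named genes with the largest rises (left) and the 12 with the largest falls (right) in submandibular against sublingual gland. Circles are submandibular and squares sublingual libraries, open symbols are animal 4 and black bars are liver medians. For CST5, filled circles sit at 7690 to 13563 TPM and all squares at 97.1 to 239 TPM, around the liver bar.

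The genes with the largest falls in submandibular gland included secreted proteins of mucosal defence. Of 23 tested members of an antimicrobial list, 12 were lower and 0 higher (all genes: 8.43% and 6.42%), with a list median of -2.43. Without the pair of animal 4 it was 10 lower and 0 higher (all genes: 8.18% and 6.33%). Without the pairs of animals 1, 4 and 5 it was also 10 and 0 (all genes: 4.81% and 3.72%). In 11 of the 12 named genes with the largest falls, the median of the submandibular libraries was at or below the highest liver value in TPM as deposited. BPIFB1 was the exception, and the count was not made on scaled values.

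SLPI encodes an inhibitor of neutrophil elastase with antimicrobial activity. It stood at 13.3, 27 and 38.9 TPM in submandibular and at 681, 1708 and 10462 TPM in sublingual gland, without overlap and lower in 6 of 6 animals. The difference was -5.38 (SE 0.49, limma adjusted p = 4.97e-07). Liver, at 71.7 to 172 TPM, lay above every submandibular library in TPM as deposited, a comparison not made on scaled values. CRISP3, a cysteine-rich secretory protein of saliva and neutrophil granules, stood at 14.1, 21.9 and 120 TPM in submandibular and at 433, 1698 and 2929 TPM in sublingual gland. Its difference was -4.54 (limma adjusted p = 4.86e-05), also without overlap. C4H6orf58, whose human counterpart is also found in saliva, stood at 12.7 to 31.8 TPM in submandibular gland. In sublingual gland it ran from 41 TPM in animal 4 and 289 TPM in animal 1 to 1399, 4850, 5254 and 7106 TPM in the others. The difference was -5.22, and the groups did not overlap in TPM.

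LYZ, the lysozyme gene, was among the 5 most abundant features of sublingual gland, at 957, 9818 and 31311 TPM. In submandibular gland it stood at 203, 413 and 1308 TPM, and the difference was -3.19 (SE 0.74, limma adjusted p = 0.00654). LCN2, which captures bacterial siderophores, stood at 10.1 to 240 TPM in submandibular and at 106 to 5565 TPM in sublingual gland (-3.50). WFDC2, a protease inhibitor of the same domain family as SLPI, stood at 2134 to 2388 TPM in 5 sublingual libraries and at 624 TPM in animal 4. Its submandibular values were 29.4 to 365 TPM, without overlap in TPM (-2.95). DEFB1, a beta-defensin, was lower by -1.86, a limma call lost without animal 1, 2, 4 or 6 (adjusted p = 0.083 to 0.15). DMBT1, the salivary agglutinin gene, stood at 0.538 to 3.5 TPM in submandibular gland. In sublingual gland it was at 2.01 and 6.48 TPM in animals 1 and 4 and at 56.2 to 341 TPM in the others, and its difference was -3.99.

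PI3 and CXCL17 were highest in the sublingual libraries of animals 1 and 4, whose pieces held mouth lining. The part of the lining in their differences was not tested. Leaving out those pairs also leaves out the fat-rich submandibular piece of animal 4. PI3 encodes the elastase inhibitor elafin, which keratinocytes also make. It stood at 1527 and 3485 TPM in the sublingual libraries of animals 1 and 4, whose squamous markers summed to 42828 and 124832 TPM, and at 9.04 to 33 TPM in the other 4. In submandibular gland it stood at 0.25 to 16.9 TPM, and the difference of -4.58 became -2.94 without animals 1 and 4 (limma adjusted p = 0.0167). CXCL17, a mucosal chemokine, was at 158 and 300 TPM in animals 1 and 4 and at 24.6 to 69.4 TPM in the other sublingual libraries. It stood at 0.266 to 2.29 TPM in submandibular gland, and its difference was -4.61 with and -4.04 without those pairs. SCGB3A1, a secretoglobin of airway secretory cells, stood at 0.38 to 1.07 TPM in 5 submandibular libraries, at 31.2 TPM in animal 4 and at 21.7 to 288 TPM in sublingual gland (-4.44).

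OLFM4, CLDN22 and ENPP3 were also among the named falls. OLFM4, a secreted glycoprotein of intestinal and glandular epithelium, stood at 2.24 to 39.6 TPM in submandibular and at 14.8 to 2299 TPM in sublingual gland (-4.66). CLDN22, a claudin of tight junctions, stood at 0.736 to 4.58 TPM in submandibular gland. In sublingual gland it was at 5.58 TPM in animal 4, with 56.1 to 408 TPM in the other 5 (-4.53). ENPP3, an ectonucleotidase, stood at 0.899 to 8.3 and at 7.4 to 594 TPM (-4.41). In all 3 genes the lowest sublingual value was that of animal 4, whose piece held mouth lining.

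Genes of mucus and its packaging were lower in submandibular gland where they differed. Of 17 tested members of the mucous list, 7 were lower and 0 higher (all genes: 8.43% and 6.42%), with a median of -1.69. Without the pair of animal 4 there were 6 lower and 1 higher (all genes: 8.18% and 6.33%). Without the pairs of animals 1, 4 and 5 there were 4 lower and 2 higher (all genes: 4.81% and 3.72%), with a median of -0.53. BPIFB1, a PLUNC family protein of mucous cells, had the largest fall, at 74.8, 156 and 228 TPM in submandibular and 364, 12262 and 19758 TPM in sublingual gland. Its difference was -4.34 (SE 0.78, limma adjusted p = 0.000982), and the groups did not overlap in TPM. FCGBP, a large mucus protein that crosslinks mucins, stood at 0.353 to 0.752 TPM in submandibular and at 1.83 to 60.4 TPM in sublingual gland. It was lower in 6 of 6 animals, by -3.07 (limma adjusted p = 3.15e-05). AGR3, a disulfide isomerase of mucus-producing cells, stood at 0.367 to 4.3 and 7.01 to 48.9 TPM (-2.02). TFF1, a trefoil peptide secreted with mucins, stood at 0 to 2.61 TPM in submandibular and 1.97 to 115 TPM in sublingual gland (-2.09). The membrane-bound mucins MUC20 (-1.80) and MUC15 (-1.31) were lower too. The limma call of MUC15 was lost without animal 1, 2, 3 or 4 (adjusted p = 0.0616 to 0.108) and without the animal block.

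MUC5B, the main gel-forming mucin of saliva, reached 1 TPM in 5 libraries only, all of them sublingual, and so missed the filter of 6 libraries. It stood at 2.64, 65.4, 13.8, 14.8, 13.4 and 0.128 TPM in the sublingual libraries of animals 1 to 6 and at 0.0118 to 0.234 TPM in submandibular gland. The sublingual library of animal 6, which held 332616 TPM of ZG16B, lay within the submandibular range of MUC5B, and the other 5 lay above it. In the fit with no filter on low values the difference was -2.66 (SE 0.46, limma adjusted p = 0.00117). MUC4, a membrane-bound mucin, was likewise low in the sublingual library of animal 6, at 0.711 TPM, and at 4.28 to 29.3 TPM in the other 5, against 0.255 to 1.66 TPM in submandibular gland (-1.69). MUC19, another gel-forming mucin, did not pass: it stood at 21.9 to 49.2 TPM in 5 submandibular libraries, and in sublingual gland at 391 TPM in animal 5 and 1.03 to 14.6 TPM in the other 5 (1.59, limma adjusted p = 0.173). It passed without animal 4 (2.15, adjusted p = 0.0281) and without animal 5 (2.42, adjusted p = 0.0305).

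The glycosylation list split by enzyme. Of 28 tested members, 5 were lower and 5 higher (all genes: 8.43% and 6.42%), with a median of 0.22. GCNT3, which builds the branched core 2 and core 4 structures of mucins, stood at 0.505, 1.68 and 9.05 TPM in submandibular and at 58.5, 108 and 304 TPM in sublingual gland. It was lower in 6 of 6 animals without overlap, by -4.36 (SE 0.45, limma adjusted p = 3.55e-06). The sialyltransferase genes ST3GAL4 and ST6GALNAC1 were lower too. ST3GAL4 stood at 0.678 to 1.51 TPM in 5 submandibular libraries, at 52.5 TPM in the fat-rich one and at 22.6 to 51.7 TPM in sublingual gland (-2.68). ST6GALNAC1, which makes sialyl-Tn, stood at 0.251 to 0.796 TPM in the same 5, at 6.34 TPM in animal 4 and at 2.55 to 18.4 TPM in sublingual gland (-1.56). GALNT6 and B4GALT4 completed the lower group. ST3GAL1, which sialylates core 1 O-glycans, went the other way, at 8.1 to 19.5 TPM in submandibular and 0.82 to 11.9 TPM in sublingual gland. It was higher in 6 of 6 animals, by 2.54 (limma adjusted p = 0.000504), as were B4GALNT3, which makes LacdiNAc (1.42), GALNT10 (1.33) and the core fucosyltransferase FUT8 (1.26). The limma call of B4GALNT3 was lost without animal 1, 2, 3 or 6 (adjusted p = 0.0545 to 0.0738), and that of B4GALT4 without animal 1 (0.0687). In TPM as deposited 2 members were higher and 7 lower (all genes: 0.753% and 27.2%).

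**Figure D4:**
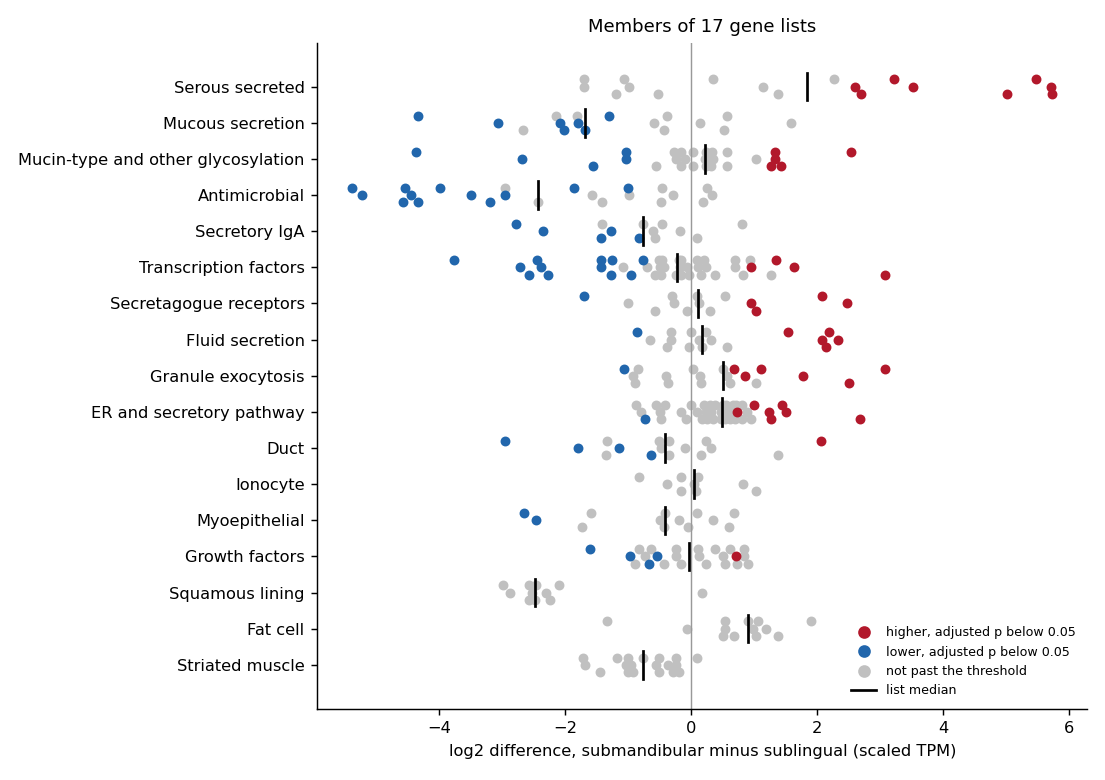
Log2 differences, submandibular minus sublingual on scaled TPM (x axis), of the tested members of 17 gene lists (rows). Red and blue points passed an adjusted p of 0.05 as higher or lower, grey points did not, and black bars are list medians, from -2.43 for antimicrobial to 1.83 for serous secreted genes among the secretory lists.

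A few of the most abundant secreted genes did not pass the threshold. ZG16B, a lectin-like secreted protein, was the most abundant gene of 4 sublingual libraries. It stood at 31360, 300050, 219405, 2016, 143860 and 332616 TPM in sublingual gland of animals 1 to 6. The submandibular values were 20304, 11208, 25651, 670, 18029 and 42560 TPM, lower in 5 of 6 animals after scaling. The difference was -1.81 with a limma adjusted p of 0.183, and -2.67 (adjusted p = 0.0171) in TPM as deposited. PIP, the prolactin-inducible protein of exocrine fluids, stood at 30517 to 48261 TPM in 5 submandibular libraries and at 493 to 109280 TPM in sublingual gland (0.34, limma adjusted p = 0.864). Its sign changed in TPM as deposited. MUC7, the small salivary mucin that clumps bacteria, stood at 112 to 6045 and at 184 to 27189 TPM (-0.38, adjusted p = 0.809). KLK1, the kallikrein of striated ducts, stood at 45.2 to 2192 and 170 to 970 TPM (1.38, adjusted p = 0.355). The mitochondrial genes COX2 and ATP6, the remaining members of the 5 most abundant sublingual features, did not pass either (-0.21 and -0.73).

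Transcription factors included the genes with the lowest adjusted p among those named. Of 42 tested members, 4 were higher and 12 lower in submandibular gland (all genes: 6.42% and 8.43%), with a median of -0.22. Without the pairs of animals 1 and 4 these were 7 higher and 8 lower (all genes: 2.77% and 3.39%), with a median of 0.01. In TPM as deposited they were 2 and 20 (all genes: 0.753% and 27.2%). SOX2, a progenitor factor that acinar cells of developing salivary glands require, stood at 0.148, 0.264 and 0.626 TPM in submandibular gland. In sublingual gland it stood at 10.5, 26.4 and 41.4 TPM, without overlap, while the parotid median was 0.258 TPM. The difference was -3.76 (SE 0.15, limma adjusted p = 4.35e-14), -3.71 without the pair of animal 4 and -3.68 without the pairs of animals 1 and 4. NKX2-3, a homeobox factor that the mouse sublingual gland needs to mature, stood at 0.0247, 0.0984 and 0.186 TPM in submandibular and at 4, 9.34 and 14.7 TPM in sublingual gland. It was lower in 6 of 6 animals without overlap, by -2.72 (SE 0.21, limma adjusted p = 2.44e-08). Both genes separated the glands in the fat-rich and the lining-rich pieces as well.

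BHLHA15, also called MIST1, drives the maturation of regulated secretory cells and was the largest rise among the factors. It stood at 64.2 to 111 TPM in 5 submandibular libraries, at 1.55 TPM in animal 4 and at 4.93, 8.41 and 39 TPM in sublingual gland. The difference was 3.08 (SE 0.82, limma adjusted p = 0.0149), and 4.03 without the pair of animal 4. The call was lost without animal 1, 2 or 3 (limma adjusted p = 0.08, 0.061 and 0.0517). ETV1, an ETS family factor, was also higher (1.63), while its relative ETV4 was lower, at 0.0841 to 0.64 TPM against 0.786 to 6.3 TPM (-1.26, limma adjusted p = 4.86e-05). The call of ETV1 was lost without any of animals 1, 2, 3, 5 and 6 (0.0539 to 0.251) and without the animal block. TFAP2B was also called higher. BARX1, a homeobox factor of oral and stomach mesenchyme, stood at 0.332 to 1.18 TPM in 5 submandibular libraries, at 19.6 TPM in the fat-rich one and at 3.75 to 16.6 TPM in sublingual gland (-1.44). MYB, a proliferation-linked factor, followed the same pattern at 9.43 to 17.6, 61.6 and 38.6 to 108 TPM (-1.28), and its limma call was lost without animal 1 (adjusted p = 0.0717). TBX1, a pharyngeal factor, stood at 0.0589 to 2.66 TPM in submandibular and 2.97 to 30.7 TPM in sublingual gland (-2.58). Its call was lost without the pairs of animals 1 and 4 (adjusted p = 0.0505).

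KLF5 and ELF3 were highest in the 2 sublingual pieces with mouth lining. KLF5, a factor of proliferating epithelium, stood at 123 and 148 TPM in animals 1 and 4, at 12.4 to 18 TPM in the other sublingual libraries and at 1.73 to 3.55 TPM in submandibular gland. Its difference was -2.39 with and -1.30 without those pairs and passed in both fits. ELF3, an epithelial ETS factor, stood at 179 and 329 TPM against 24.9 to 55.1 TPM in the other sublingual libraries, and its difference of -2.28 became -0.92 (limma adjusted p = 0.179). The part of the lining in these differences was not tested further.

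**Figure D5:**
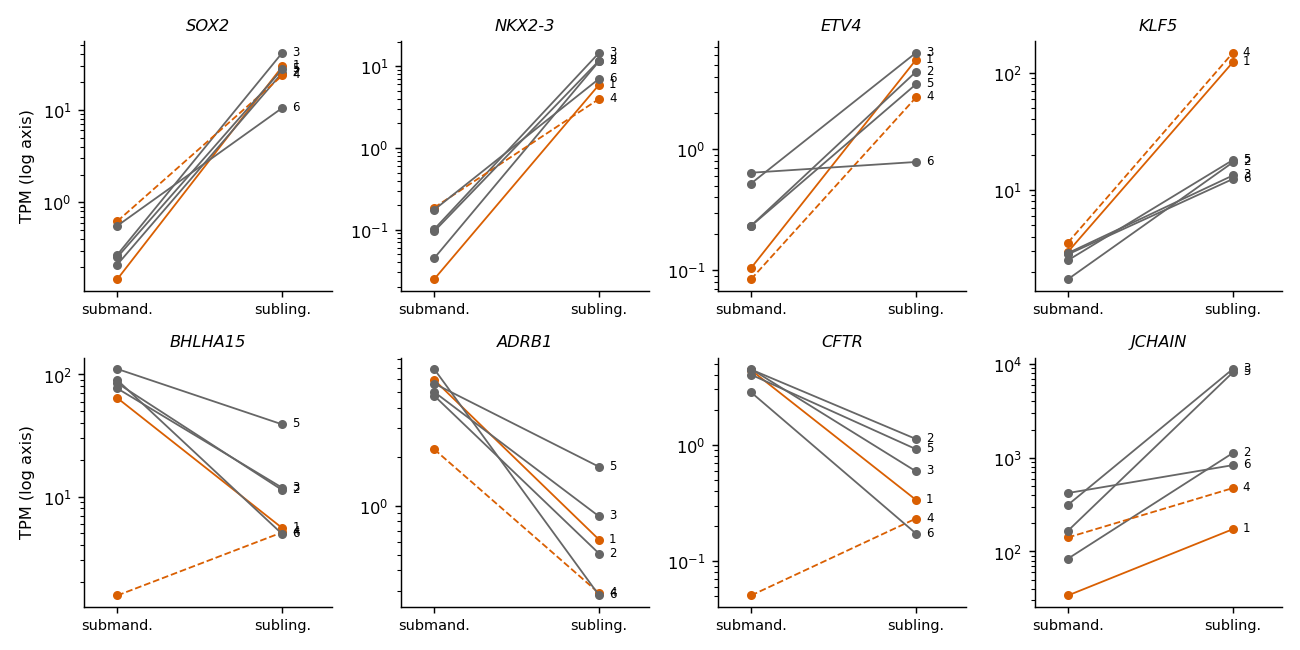
TPM (log axis) of 8 genes in the submandibular and sublingual library of each animal, joined by lines and numbered by animal. Orange marks animals 1 and 4, whose sublingual pieces held mouth lining, and the dashed line is animal 4, whose submandibular piece was rich in fat. SOX2 and NKX2-3 rise from submandibular to sublingual gland in all 6 animals, and BHLHA15 and CFTR fall in all except animal 4.

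Of 14 tested receptors that trigger secretion, 4 were higher and 1 lower in submandibular gland (all genes: 6.42% and 8.43%). The list's median was 0.11. In TPM as deposited 2 were higher and 3 lower (all genes: 0.753% and 27.2%), with a median of -0.36. ADRB1, the beta-1 adrenergic receptor through which sympathetic nerves evoke protein secretion, stood at 2.22, 5.32 and 6.92 TPM in submandibular and at 0.28, 0.561 and 1.73 TPM in sublingual gland. The groups did not overlap in TPM, and the difference was 2.47 (SE 0.32, limma adjusted p = 4.86e-05), higher in 6 of 6 animals. VIPR2, a receptor for vasoactive intestinal peptide, stood at 2.36 to 5.07 TPM in submandibular gland. Its sublingual value was 2.97 TPM in animal 1 and 0.0812 to 0.825 TPM in the others (2.07). CHRM3, the muscarinic receptor that drives fluid secretion, was called higher on scaled values only (0.95, limma adjusted p = 0.0467), and in TPM as deposited the difference was 0.21 (adjusted p = 0.633). That call was also lost without animal 1, 2, 3 or 6 (0.0772 to 0.213) and without the animal block. RAMP1, a subunit of the receptor for calcitonin gene-related peptide, was lower, at 1.34 to 3.3 TPM in 5 submandibular libraries, 43.7 TPM in animal 4 and 13.6 to 39.6 TPM in sublingual gland (-1.70). Its limma call was lost without animal 1 or 2 (adjusted p = 0.0672 and 0.057). Without the pairs of animals 1 and 4, 2 members were higher and 1 lower (all genes: 2.77% and 3.39%).

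Of 17 tested genes of fluid and ion transport in acini, 5 were higher and 1 lower (all genes: 6.42% and 8.43%). The list's median was 0.17. The higher genes included the carbonic anhydrases CA2 and CA12, the water channel AQP1 and the chloride channel ANO1. CA2 stood at 17.3 to 55.9 TPM in 5 submandibular libraries, at 0.663 TPM in animal 4 and at 1.43 to 13.4 TPM in sublingual gland (2.32). AQP1, which capillaries also express, stood at 250 TPM as deposited in the fat-rich submandibular piece, the highest of the submandibular libraries. That library had a scaling factor of 2.67, against 0.468 to 0.681 in the other submandibular libraries, so the rank need not hold after scaling. The AQP1 difference was 2.19 on scaled values and 1.35 as deposited (limma adjusted p = 0.108). ANO1, the apical channel of acinar cells, stood at 6.77 to 14.8 TPM in 5 submandibular libraries and at 1.1 to 11.9 TPM in sublingual gland. Its difference was 1.53 on scaled values and 0.69 as deposited (adjusted p = 0.213). The limma calls of ANO1 without animal 1, 2, 3 or 6 (adjusted p = 0.0504 to 0.12) and of CA2 without animal 1 (0.0599) were lost. SLC12A2, which loads acinar cells with chloride, was lower, at 0.644 to 1.74 TPM against 2.1 to 11.6 TPM, with no overlap in TPM (-0.86, adjusted p = 0.0111), a limma call lost without animal 2 (0.0605). AQP5, the apical water channel, did not pass (-0.32, limma adjusted p = 0.794) and changed sign to 0.20 without the pair of animal 4.

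The machinery of granule release and protein export gave mixed calls that depended on the scaling. For granule release, 6 of 19 members were higher and 1 lower (all genes: 6.42% and 8.43%), with a median of 0.50. In TPM as deposited 3 were higher and 5 lower (all genes: 0.753% and 27.2%), with a median of -0.24. RAB26, a small GTPase of secretory granules and a target of MIST1, stood at 25.3 to 49.5 TPM in 5 submandibular libraries, at 7.32 TPM in animal 4 and at 3.37 to 15.2 TPM in sublingual gland (2.51, limma adjusted p = 0.00653). MYRIP, which links granules to the motor myosin, stood at 2.89 to 3.9 TPM in the same 5, 1.19 TPM in animal 4 and 0.164 to 1.93 TPM in sublingual gland (1.78). SYT7, a calcium sensor, was higher by 1.11 and not called in TPM as deposited (0.44). RAB11A, a GTPase of recycling endosomes, stood at 150 and 309 TPM in the lining-rich sublingual pieces of animals 1 and 4 and at 39.1 to 56.7 TPM in the others. It stood at 12.9 to 18.1 TPM in 5 submandibular libraries and at 86.8 TPM in animal 4. Its difference of -1.06 was -0.49 without the pairs of animals 1 and 4 (limma adjusted p = 0.325), and the call was also lost without animal 1, 3, 4 or 6 alone (0.0512 to 0.126).

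For the endoplasmic reticulum and early secretory pathway, 7 of 42 members were higher and 1 lower on scaled values. The list's median was 0.49, and of all genes tested 6.42% were higher and 8.43% lower. In TPM as deposited 1 was higher and 9 lower (all genes: 0.753% and 27.2%), with a median of -0.27. Without the animal block 4 were higher, against 688 of all 13550 genes. Besides RCN1, the higher genes included the translocon subunits SEC61A1 and SSR3 (1.44), which overlapped between the glands in TPM. The limma call of SEC61A1 was lost without animal 1, 2, 3, 4 or 6 (adjusted p = 0.0558 to 0.143) and without the animal block, and that of SSR3 without animal 1 (0.0917). HSP90B1, the chaperone also called GRP94, was lower, at 20.8 to 27 TPM in 5 submandibular libraries, 107 TPM in animal 4 and 58 to 167 TPM in sublingual gland (-0.73, limma adjusted p = 0.0398), a call lost without animal 2, 3 or 6 (0.0792 to 0.15). Without the pairs of animals 1 and 4 there were 2 members higher and 1 lower (all genes: 2.77% and 3.39%).

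Genes of plasma cells and secretory immunoglobulin A were lower in submandibular gland in 5 of 13 tested members and higher in 0 in limma. Of all genes tested, 8.43% were lower and 6.42% higher. At an unadjusted limma p below 0.05, 7 members were lower and 0 higher, against 2253 and 1904 of all 13550 genes. The list's median was -0.76. JCHAIN, the chain that joins immunoglobulin A dimers, stood at 33.9, 154 and 420 TPM in submandibular and at 173, 980 and 8866 TPM in sublingual gland. It was lower in 6 of 6 animals after scaling, by -2.35 (SE 0.59, limma adjusted p = 0.0107), although the groups overlapped in TPM. MZB1, a chaperone of antibody-secreting cells, stood at 0.784, 3.38 and 10.9 TPM and at 7.34, 71.6 and 201 TPM (-2.78, SE 0.47). The plasma cell receptor gene TNFRSF17 (-1.43), the homing receptor CCR10 (-1.27) and the factor IRF4 (-0.83) were lower too. TNFRSF17 lost its limma call without animal 3 (adjusted p = 0.0601). PIGR, the epithelial carrier of immunoglobulin A, did not pass, at 2.5 to 99.6 and 13.6 to 562 TPM (-0.76, adjusted p = 0.506). The 18 lymphoid markers summed to 3.34 to 6.58 TPM in 5 submandibular libraries, 393 TPM in the fat-rich one and 20.4 to 53.2 TPM in sublingual gland. Of 8 tested lymphoid genes 0 were called. Without the pair of animal 4, 4 were lower and 0 higher (all genes: 8.18% and 6.33%), with a median of -0.88. Their part in these differences was not tested.

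Of 16 tested duct genes, 1 was higher and 4 lower (WFDC2, KRT7, GSTT1 and SLC9A3), and without the pairs of animals 1 and 4 these were 1 and 1. In the main fit 6.42% of all genes tested were higher and 8.43% lower, and without those pairs 2.77% and 3.39%. GSTT1 and SLC9A3 lost their calls without animal 1 (limma adjusted p = 0.0586 and 0.0626). CFTR, a chloride and bicarbonate channel of ducts and acini, stood at 2.83 to 4.49 TPM in 5 submandibular libraries, at 0.0505 TPM in animal 4 and at 0.172 to 1.12 TPM in sublingual gland (2.06, limma adjusted p = 0.00186). KRT7, a keratin of simple epithelium, was lower and was highest in the lining-rich sublingual pieces, at 45.9 and 52.2 TPM against 4.51 to 14.1 TPM in the others. Its difference of -1.79 became -0.63 without those pairs (limma adjusted p = 0.204), and its call was lost without animal 1 alone (0.0512). The basal keratins KRT5 and KRT14, which mark myoepithelial cells and also the basal layer of the mouth lining, behaved in the same way. KRT5 stood at 1851 and 2071 TPM in the sublingual libraries of animals 1 and 4, at 18.9 to 98.8 TPM in the others and at 12.6 to 24.7 TPM in submandibular gland. Its difference of -2.65 became -0.69 (limma adjusted p = 0.337), and that of KRT14 went from -2.46 to -0.65 (adjusted p = 0.32). Both calls were lost without animal 1 alone or animal 4 alone. These were the 2 myoepithelial genes called of 13 tested, against 14.8% of all genes tested. Of 9 tested ionocyte genes, 0 passed in limma, with 2 at an unadjusted p below 0.05, against 4157 of all 13550 genes.

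Growth factor genes differed in 5 of 24 tested members, with 1 higher (FGF2) and 4 lower, against 14.8% of all genes tested. FGF2, a fibroblast growth factor, stood at 0 to 0.986 TPM in 5 submandibular libraries, at 10.1 TPM in the fat-rich one and at 0 to 1.67 TPM in sublingual gland. Its call (0.71, limma adjusted p = 0.0432) was lost without animal 1, 3 or 4 (0.0993, 0.0954 and 0.196), without the animal block (0.0627) and in TPM as deposited (0.311). NTF4, a neurotrophin, stood at 0.167 to 0.908 TPM in submandibular and 4.08 to 16.5 TPM in sublingual gland. It was lower in 6 of 6 animals without overlap, by -1.60 (limma adjusted p = 0.000475). NRG1, a ligand of ERBB receptors, stood at 0.0311 to 0.12 TPM and 0.738 to 3.04 TPM, also without overlap (-0.98). BMP2 (-0.67) and BDNF (-0.55) were the other lower members. The limma call of BMP2 was lost without animal 1, 2, 3 or 6 (adjusted p = 0.0645 to 0.199) and that of BDNF without animal 1, 2 or 4 (0.0528 to 0.124). Without the pairs of animals 1 and 4 the list held 0 higher and 2 lower (all genes: 2.77% and 3.39%). Among nerve and glial genes 2 of 8 were higher in submandibular gland, against 6.42% of all genes tested. In TPM as deposited 1 nerve gene was higher and 1 lower (all genes: 0.753% and 27.2%). The 2 higher genes of the main fit were GAP43 of growing axons (1.79) and MBP of myelin (1.13). Their limma calls were lost without animal 1 or 2, and GAP43 also without animal 5 or 6 and MBP without animal 3 (adjusted p = 0.0584 to 0.157). Of 13 fat, 19 muscle and 11 squamous genes tested, 0 were called in limma. At an unadjusted limma p below 0.05 there were 2, 0 and 5, against 4157 of all 13550 genes.

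Neighbouring genes of 3 families were compared along their chromosome. Their order was taken from the RefSeq gene table of another macaque assembly, and these runs were chosen after their values had been seen. The BPIF run held calls in both directions, though no gene was called against its direct neighbour. BPIFB6 was lower (-2.33, limma adjusted p = 0.000182), BPIFB3 next to it did not pass (0.02, adjusted p = 0.97), BPIFB4 was higher (1.42), BPIFA2 and BPIFA4 higher (5.47 and 4.90) and BPIFB1, 3 genes beyond BPIFA4, lower (-4.34). BPIFB6 stood at 0.0337 to 0.837 TPM in submandibular and at 3.2 to 50.9 TPM in sublingual gland, without overlap. BPIFB4 stood at 1.3 to 2.43 TPM in 5 submandibular libraries, at 0 in animal 4 and at 0.0403 to 0.648 TPM in sublingual gland. OPRPN, SMR3B and SMR3A are consecutive in that table. OPRPN was higher in submandibular gland (2.21, limma adjusted p = 0.00939, and 0.0503 without animal 3) and SMR3B higher by 5.01. SMR3A was at 19.3, 414, 3992, 147, 8305 and 4734 TPM in sublingual gland of animals 1 to 6 and at 33.2 to 418 TPM in submandibular gland. Its difference of -1.70 did not pass (limma adjusted p = 0.205), and it was -2.55 as deposited (adjusted p = 0.0188) and -2.80 without animal 1 (0.0465). In the cystatin run, CST5, CST3 and the unnamed LOC703642 were all higher, the latter at 12375 to 28020 TPM in 5 submandibular libraries, 7.97 TPM in animal 4 and 125 to 677 TPM in sublingual gland (5.21). The limma call of LOC703642 was lost without animal 1 (adjusted p = 0.0622). LOC713067, which lies between CST5 and CST3, was also higher (3.24).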

How the data were processed

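TPM values deposited by the authors cover 21292 genes in 30 libraries. The submitters' processing notes name kallisto among the tools, while its version, the transcriptome and the genome build are not given in the sources used here. All library totals are equal, which hides the sequencing depth, and intervals that would need it are left out. 0 per-sample columns were left unused.

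Unweighted trimmed-mean factors (30% of log ratios and 5% of mean levels trimmed) were computed from the table, and log2(TPM + 1) of the scaled values was fitted with limma 3.58.1 in R 4.3.3. Differences on this scale understate the change of low genes. All 30 libraries entered, with tissue and animal as terms and a variance trend, so the spread of a gene is shared over 5 tissues. The filter kept genes that reached 1 TPM in 6 or more libraries (13550), and p-values were two-sided and Benjamini-Hochberg adjusted over them, with a threshold of 0.05. Pairing came from the animal numbers in the labels. Deviations from the gland means correlated at 0.213 on average within an animal and -0.037 between animals, and 0 pairs of libraries were identical. The correlation was -0.0506 within animal 1. For the submandibular libraries of animals 1 and 5 the best match was the sublingual library of animal 6. Deviations from a gland mean cancel out within the gland, so the between-animal average is not independent of the within-animal one. The fit was tested on simulated data, where its share of false calls was above the level set. The simulation used unscaled values and gave every gene and library the same spread. In the data the libraries differed in spread, so the simulation cannot show the share of false calls here.

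The members, lists and tests were chosen with earlier results of these data known. The named genes are the 12 largest rises and 12 largest falls among 105 eligible genes. Eligible genes were called, had a symbol, a mean of 100 TPM or more in the gland with the higher level, the same direction in animals 1, 2, 3, 5 and 6 and the same sign with and without scaling. Also named are, per list, the 4 most abundant members and up to 3 further called ones, and the 5 most abundant features of each gland. Other genes named beside these were chosen after their values were seen, and some genes that the rule names are not reported here. Gene order is from the RefSeq gene table of another macaque assembly, which lists 90.1% of the symbols, and no coordinates are printed. Alternatives comprised unscaled and quantile-normalised values, other filters and pseudocount, no animal block, array weights, fewer libraries and leaving out each pair. Markers of lymphoid cells, blood, macrophages, endothelium, fibroblasts, pancreatic acini and hepatocytes gave 0 calls in this fit, with 2 of their genes at an unadjusted limma p below 0.05. Of all 13550 genes, 4157 were below that level. Without the pair of animal 4, 4 lymphoid genes and 1 fibroblast gene were lower, against 8.18% of all genes. In TPM as deposited 2 hepatocyte genes were lower, against 27.2% of all genes.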

Additional observations from a re-analysis of the deposited data

Results flagged for a closer look

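A Dixon test at the 5% level asked, gland by gland, whether the highest or lowest of 6 libraries stood too far from its neighbour. It used log2(TPM + 1) of unscaled values for genes and marker sums. Of 218 sets of 6 libraries, 52 were picked out, where chance would give about 10.9 if the sets were independent. They reuse the same libraries and are not independent, so no conclusion is drawn from the excess. Of the 52 sets, 48 belong to the submandibular library of animal 4. The rule for the largest rises and falls required the same direction in every animal except animal 4. That rule favours picking out animal 4, so the 48 sets are no independent evidence on its library. This library also held 14524 TPM of fat cell markers (next 289) and had 11.1% of TPM in its 10 most abundant genes (next 73.5%).

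Secreted proteins were low in it: CST5 at 68.7 TPM, CST2 at 70.8, BPIFA2 at 406, SMR3B at 914, BPIFA4 at 2.34, PRR27 at 1.3, CA6 at 148, PIP at 219, ZG16B at 670, MUC7 at 112, MUC19 at 1.56, KLK1 at 45.2, LOC703642 at 7.97, LOC114670789 at 2720 and LOC722360 at 1665 TPM, with BPIFB4 listed at 0. Other genes low there were TESC at 55.2 TPM, B4GALNT3 at 0.594, BHLHA15 at 1.55, ETV1 at 2.15, ADRB1 at 2.22, CHRM3 at 0.0202, AQP5 at 3.22, CA2 at 0.663, CFTR at 0.0505, RAB26 at 7.32 and MYRIP at 1.19 TPM.

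Genes high in the same library, in TPM as deposited, were SCGB3A1 at 31.2 TPM, ST3GAL4 at 52.5, ST6GALNAC1 at 6.34, B4GALT4 at 9.05, GALNT10 at 8.76, CCR10 at 1.58, IRF4 at 1.21, TBX1 at 2.66, BARX1 at 19.6, MYB at 61.6, BMP2 at 3.06, FGF2 at 10.1, RAMP1 at 43.7, AQP1 at 250, GSTT1 at 264, SYT7 at 4.68, RAB11A at 86.8, HSP90B1 at 107 and ATP6 at 9043 TPM. The trimmed-mean factor, by which TPM is divided in scaling, was 2.67 in this library. It was 0.468 to 0.681 in the other submandibular libraries. A gene high here as deposited need therefore not be high after scaling, and the scaled values were not put to the Dixon test.

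In sublingual gland 4 sets were picked out. BPIFA4 was high in animal 5 at 725 TPM (next 29.4), KLK1 and WFDC2 were low in animal 4 at 170 and 624 TPM (next 514 and 2134), and AGR3 was low in animal 6 at 7.01 TPM (next 25.6).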

How the results depend on the processing

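Of 105 named genes with a test, 95 were called. The choice of the 24 leading genes largely fixed their sign, and of the other 71 called genes 70 kept theirs under each alternative computed, FGF2 being the exception. These 71 were counted because they were called in the same libraries that the alternatives reuse, so this is no independent check. Of the 2012 called genes 162 changed sign in TPM as deposited. Of the 24 leading genes, 17 were also called under each, and CST2, BPIFA4, PRR27, CA6, TESC, RGCC and TCIM lost the call under at least 1. In TPM as deposited the calls of TCIM, PRR4, AQP1, ANO1, B4GALNT3, FUT8, ETV1, CHRM3, SYT7, SEC61A1, SSR3, MBP and FGF2 were lost. The number of changed genes (2012, of which 870 higher and 1142 lower) varied with the setting. TPM as deposited gave 3787 (102 and 3685), and 8155 (108 and 8047) without the pair of animal 4. Array weights gave 4069 (1974 and 2095), a minimum change of 1 gave 948 (382 and 566) and the 12 gland libraries alone gave 579 (311 and 268). The 10 gland libraries without animal 4 gave 711 lower. Leaving out one animal gave 798 to 2489 changed, 340 to 1128 higher and 458 to 1361 lower. Alternatives added after the data were seen gave 835 (376 and 459) without the pairs of animals 1 and 4, 1156 (504 and 652) without those of 1, 4 and 5, and 1171 (510 and 661) without those of 1 and 5. The causes were not tested. With no replicate block, that is without the pairing by animal, 1553 genes were called. Of the 105 genes, PRR4, MUC15, ETV1, CHRM3, SEC61A1 and FGF2 lost their calls without the block, and the other 99 kept theirs or stayed uncalled. In the fit to the 12 gland libraries alone, 40 of the 105 lost their calls and 65 kept theirs or stayed uncalled. With a single animal left out, 3 to 29 of the 105 lost their calls. The share of TPM in the 10 most abundant genes differed by 28.3 points with an exact unpaired permutation p of 0.0498 without the pairing, and by 22.3 to 36.8 points with each animal left out, where 5 pairs allow no p below 0.0625.

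Sign changes occurred in PIP, AQP5 and COX2, none of them called, and in FGF2, which was -0.10 as deposited without the pair of animal 4. PIP was -0.52 as deposited, -0.39 as deposited without the pair of animal 4, -1.15 with quantile normalisation, -0.28 without animal 1 (0.86 at most, without animal 4), -0.24 without the pairs of animals 1, 4 and 5 and -0.75 without those of 1 and 5. AQP5 was 0.20 without animal 4, also among the 10 gland libraries (-0.85 at the lowest, without animal 1), and 0.01 with array weights. COX2 was 0.07 without the pairs of animals 1, 4 and 5. Depth is unknown, so low values carry no counting error. With 6 animals, and fewer where pieces held other tissue, p-values rest on a spread shared with parotid, pancreas and liver.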
